A study of Homo sapiens with 8 samples.

Results

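The human nuclear receptor genes were examined in xenograft tumours with and without a knockout of SMARCA4. The 45 members were taken by gene symbol from a fixed list of receptor genes. That list was chosen with earlier results of these data known. All 45 were found among the 59050 gene symbols counted. Of these, 33 passed the filter on low counts and were tested, and 12 were under it. The tumours were xenografts of the established cell line H2122, which comes from a human lung cancer. The comparison was between 4 parental tumours, which the labels call wild type, and 4 SMARCA4 knockout tumours, and both groups had received vehicle only. The labels do not say whether the knockout line is a clone or a pool, how the knockout was made or in which hosts the tumours grew. They give each tumour its own number and title, but no animal, so p-values measure the spread between these tumours.

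Nuclear receptors are transcription factors that read small lipophilic signals directly: steroid and thyroid hormones, retinoic acid, vitamin D, oxysterols, bile acids and fatty acids, while the ligands of several orphan members are unknown or dispensable. Most of them bind DNA at copies of the core motif AGGTCA or a close variant, as monomers, as homodimers or as heterodimers with a retinoid X receptor (RXR), and the steroid receptors bind a related palindrome. Without ligand many recruit corepressors with histone deacetylases, and with ligand they recruit coactivators. SMARCA4 is a catalytic ATPase of SWI/SNF complexes, which remodel chromatin and are known as cofactors of several nuclear receptors.

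Gene counts per library were 19785922 to 23191698 in the parental group and 20662882 to 21981123 in the knockout group, and 79.1% to 85.2% of counted reads were assigned to a gene. SMARCA4 itself was at 198 to 235 CPM (the count relative to the scaled library size) in parental tumours and at 22.3 to 31.1 CPM in knockout tumours, so each library lay on the side its label gives. Of the lung and carcinoma markers, EPCAM, CDH1 and the keratins were read in both groups, while NKX2-1 and SFTPC, which mark lung epithelium, had no count in any library. The summed level of 10 such markers was 5757 to 6930 CPM in parental and 4636 to 6238 CPM in knockout tumours. Marker sums of host-type cells ranged over 182 to 612 and 346 to 608 CPM for fibroblasts, 7.92 to 18.8 and 9.85 to 16.0 CPM for endothelium, 7.78 to 71.6 and 11.4 to 28.3 CPM for leukocytes, and 4.30 to 35.8 and 2.88 to 18.2 CPM for skeletal muscle, in parental and knockout tumours in turn. The highest leukocyte and muscle sums were both in parental tumour 2, and the highest fibroblast sum was also there. Among single markers, the keratins KRT19 and KRT7 fell (log2 fold changes -1.01 and -0.71), the endothelial VWF fell (-2.37) and the fibroblast proteoglycan LUM rose (5.00). These were the only calls among 7 tested lung and carcinoma markers (median 0.08), 2 endothelial and 6 fibroblast markers. Of 2 tested muscle markers MB fell (-0.98), a call that ended when any of several single tumours was left out. None of 7 tested leukocyte markers was called. The part of these cells in the results below was not tested, and in bulk tumours fewer cells of a type and less RNA per cell cannot be told apart.

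Receptor expression was widespread and uneven. Per kilobase of exon, the highest mean levels in parental tumours were those of the COUP-TF family member NR2F6 (35.2 CPM per kb), the estrogen-related receptor ESRRA (28.2), the orphan receptor NR4A2 (27.5) and the oxysterol receptor NR1H2, also called LXR-beta (22.7). PPARD, the glucocorticoid receptor NR3C1 and RXRA followed at 16.8, 15.6 and 12.3 CPM per kb. The lowest tested members per kilobase were ESR1 at 0.204, HNF4A at 0.153 and ESRRG at 0.0597 CPM per kb in parental tumours. In knockout tumours NR4A2 had the highest level per kilobase (40.5 CPM per kb), ESRRA came next (24.2) and NR2F6 came after it (23.5). The vitamin D receptor VDR went from rank 9 to rank 14 of the 33 in level per kilobase, the retinoic acid receptor RARG from 12 to 18 and the thyroid hormone receptor THRA from 15 to 20.

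**Figure D1:**
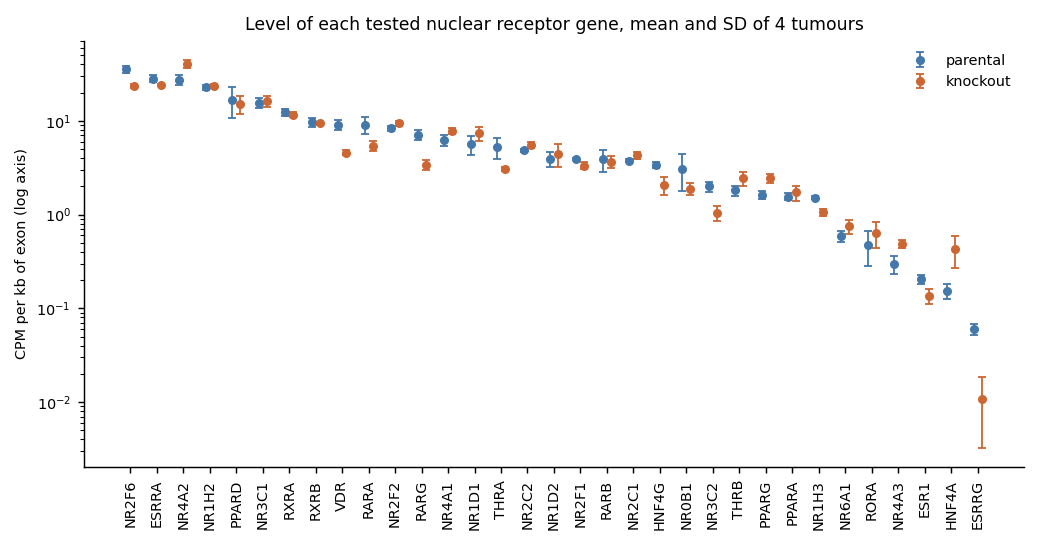
Level of the 33 tested receptor genes in CPM per kb of exon (log axis), as mean and SD of 4 tumours a group, ordered by the parental mean. The levels span from 35.2 CPM per kb for NR2F6 to 0.0597 CPM per kb for ESRRG in parental tumours, and the order of VDR, RARG and THRA drops in the knockout.

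Of the 33 tested receptor genes, 16 were called changed (48.5%) by edgeR's quasi-likelihood test at an adjusted p under 0.05, against 27.0% of all 16219 genes tested. Called higher in knockout tumours were 6 members, HNF4A, PPARG, THRB, NR4A1, NR4A2 and NR4A3 (18.2%, against 13.0% of all genes). Called lower were 10 members, RARA, RARG, VDR, THRA, NR1H3, HNF4G, NR2F6, NR3C2, ESR1 and ESRRG (30.3%, against 14.1% of all genes). The 4 knockout values lay wholly above or below the 4 parental values for 18 members (54.5%, against 29.3% of all genes), of which 15 were called. The median log2 fold change of the tested members was -0.029, and that of all genes was 0.00345. Their median absolute log2 fold change was 0.42, against 0.25 over all genes. Called with a change of at least 2-fold were 3 members, HNF4A upward and RARG and ESRRG downward, and the share over all genes at that cut was not computed. VDR was just short of it (log2 fold change -0.99), and ESRRG rested on 1 to 17 counts a library. The count of higher members went from 6 to 3 when parental tumour 1 or knockout tumour 1, 2 or 3 was left out, while the count of lower members stayed between 9 and 11 in all 15 other analyses.

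**Figure D2:**
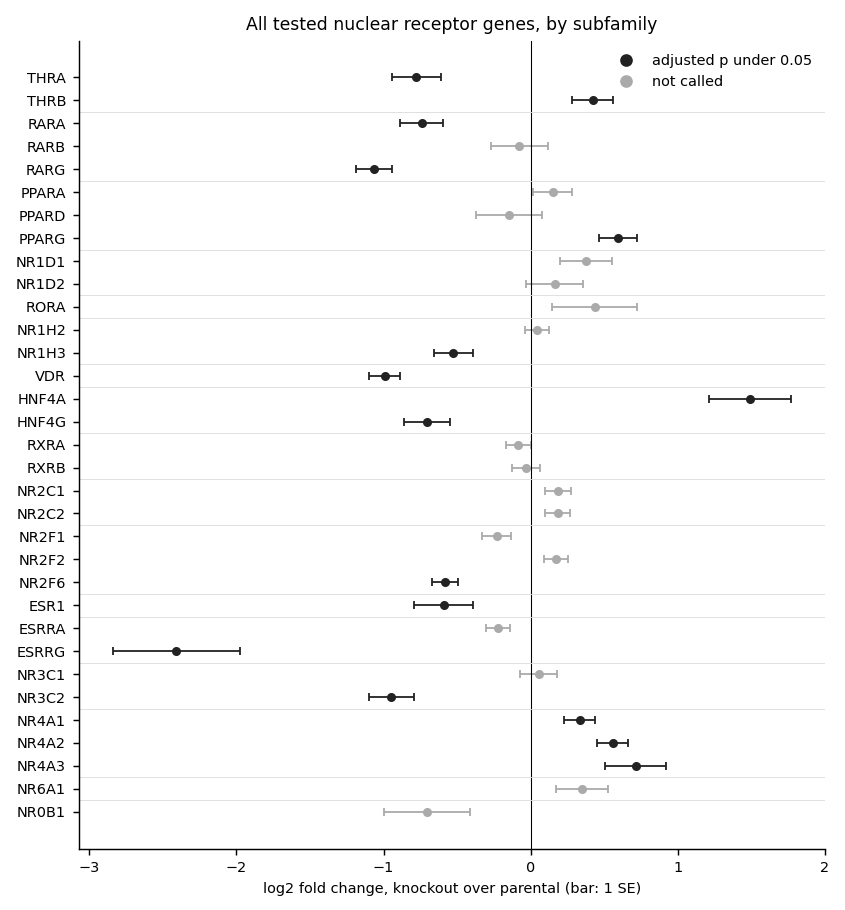
Log2 fold change (knockout over parental) of the 33 tested receptor genes, grouped by subfamily, with bars of 1 SE; black points are the 16 called members. Called changes run from -2.41 for ESRRG, which rests on few reads and passed the filter through its parental counts, to 1.49 for HNF4A. The called and uncalled members of a subfamily stand side by side.

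To show the DNA that lies at these genes, promoter windows were taken from RefSeq on GRCh38.p14, from 250 bases before to 50 bases after each annotated start. Windows were matched for 40 of the 45 members, 94 in all. NR0B2 and the called members VDR, NR2F6, HNF4G and NR4A2 had none, so 12 of the 16 called members were searched. The core motif AGGTCA, read on both strands, was present in 15 of the 94 windows (16.0%), against 13.8% of all 35116 windows of that length. These windows belong to 10 members, of which RARA, NR1H3, PPARG and ESRRG were called changed. The motifs named here were searched separately, so matches to different motifs may share letters. For those 4 called members a stretch with a match, ending by the start site, is given 5′ to 3′ on the gene's strand, with the motif or its complement in capitals.
RARA, chr17:40308930-40308990, plus strand: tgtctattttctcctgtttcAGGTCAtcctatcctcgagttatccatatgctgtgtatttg
NR1H3, chr11:47248125-47248200, plus strand: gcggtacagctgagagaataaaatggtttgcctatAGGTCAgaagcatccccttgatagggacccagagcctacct
PPARG, chr3:12287118-12287224, plus strand: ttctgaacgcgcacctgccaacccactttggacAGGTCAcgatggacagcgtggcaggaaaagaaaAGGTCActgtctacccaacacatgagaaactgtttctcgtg
ESRRG, chr1:217077012-217077087, minus strand: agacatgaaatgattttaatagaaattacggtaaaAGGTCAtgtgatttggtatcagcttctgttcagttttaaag
PPARG has 2 matches in this stretch, the first 217 and the other 184 bases before the start. The match shown starts 60 bases before the start in ESRRG, 140 in NR1H3 and 230 in RARA. Matches not shown are one in another ESRRG window, 234 bases before its start, and one in a pair of overlapping PPARG windows. That PPARG match is the same bases in both windows, 14 and 24 bases before their starts. A match is a run of letters and was not measured as a bound site in these tumours.

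The retinoid X receptors, the shared heterodimer partners of the retinoic acid, thyroid, vitamin D, PPAR and LXR receptors, were not called changed. RXRA was at 138, 120, 144 and 143 CPM in parental tumours 1 to 4 and at 136, 130, 130 and 118 CPM in knockout tumours 1 to 4. The groups overlapped, and the log2 fold change was -0.09 with an approximate 95% interval from its SE of -0.25 to 0.08. RXRB was at 32.1 to 41.7 CPM in parental and 35.3 to 38.4 CPM in knockout tumours (log2 fold change -0.03, interval -0.22 to 0.16). RXRG had no count in the parental libraries and 2 counts in the knockout libraries. Within each tumour the ratio of RXRA to RXRB counts was also close between the groups, with a mean log2 ratio of 1.86 ± 0.201 in parental and 1.80 ± 0.116 in knockout tumours (SD over 4 tumours).

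The partners of RXR that bind hormones or vitamins were lower, apart from RARB and THRB. The 3 retinoic acid receptors transduce the vitamin A derivative retinoic acid. RARG (chr12:53210567-53232980, minus strand; positions are from GENCODE 29 on GRCh38) was at 37.6, 30.2, 36.0 and 41.9 CPM in the 4 parental tumours and at 16.3, 14.97, 18.7 and 19.7 CPM in the 4 knockout tumours. Every knockout tumour was below every parental tumour, and RARG fell by 1.06 on the log2 scale (SE 0.125, edgeR adjusted p = 9.83e-05). RARA (chr17:40309192-40357643, plus strand), the receptor that is fused to PML in acute promyelocytic leukaemia, was at 41.2, 48.7, 49.9 and 31.8 CPM in parental and at 26.4, 28.3, 26.6 and 21.5 CPM in knockout tumours. The groups did not overlap, and RARA fell by 0.74 (SE 0.145, adjusted p = 0.00301). RARB, itself a classic retinoic acid target, was at 13.7, 9.18, 16.4 and 17.9 CPM in parental and at 12.1, 16.1, 14.3 and 11.7 CPM in knockout tumours. Its groups overlapped fully and its log2 fold change was -0.08 (SE 0.193, adjusted p = 0.807, interval -0.46 to 0.30). The summed level of the 3 genes per kilobase was 20.04 ± 1.40 CPM per kb in parental and 12.5 ± 0.837 CPM per kb in knockout tumours, of which RARB made up 19.2% ± 4.62 and 29.3% ± 2.64 (SD over 4 tumours).

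VDR (chr12:47841537-47943048, minus strand), the receptor for active vitamin D, was at 46.7, 45.4, 58.1 and 56.0 CPM in parental tumours and at 24.1, 26.1, 27.7 and 25.8 CPM in knockout tumours. The lowest parental tumour was above the highest knockout tumour, and the knockout mean was 50.3% of the parental level (log2 fold change -0.99, SE 0.104, edgeR adjusted p = 4.33e-05). THRA (chr17:40058290-40093867, plus strand), a receptor for thyroid hormone, was at 36.8, 44.9, 41.2 and 23.7 CPM in parental and at 21.4, 19.8, 22.2 and 21.9 CPM in knockout tumours. Parental tumour 4 was close to the knockout values but above them all, and THRA fell by 0.78 (SE 0.167, adjusted p = 0.00519). The other thyroid hormone receptor, THRB (chr3:24117153-24495756, minus strand), was at 16.7, 19.2, 21.2 and 22.1 CPM in parental and at 27.0, 32.4, 26.0 and 21.0 CPM in knockout tumours. Knockout tumour 4 lay inside the parental range, and THRB rose by 0.42 (SE 0.139, adjusted p = 0.0425). The THRB call was lost when parental tumour 1, 2 or 3 or knockout tumour 1, 2 or 3 was left out, with adjusted p from 0.0566 to 0.129. THRA shares 263 exon bases, on the opposite strand, with the clock repressor NR1D1, and the strandedness of the counts is not given in the sources used here. Those bases are 3.78% of the THRA exons and 9.49% of the NR1D1 exons, and their part in either count was not tested.

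Among the lipid-sensing receptors, the rise in PPARG and the fall in NR1H3 were the called changes. PPARG (chr3:12287368-12434356, plus strand), the master regulator of fat cell differentiation, was at 6.32, 7.67, 7.19 and 7.99 CPM in parental tumours and at 10.0, 10.2, 11.4 and 12.4 CPM in knockout tumours. Without overlap between the groups, PPARG rose by 0.60 (SE 0.129, edgeR adjusted p = 0.00536). The summed level of 9 adipocyte markers was 7.76 to 11.3 CPM in parental and 13.3 to 19.1 CPM in knockout tumours, but the single markers did not all rise. ADIPOQ and CIDEA, which define fat cells, had no count in any library, LEP had 1 count, and FABP4 had 6 counts in parental and 0 in knockout libraries. Of the 3 markers that were tested, CFD and PLIN4 rose (log2 fold changes 2.05 and 1.87) and LIPE fell (-1.30), and PLIN4 was at 2.46 without parental tumour 3. PPARA, the fatty acid receptor of oxidative tissues, was at 18.3 to 22.5 CPM in parental and 17.2 to 27.2 CPM in knockout tumours (log2 fold change 0.15, adjusted p = 0.456). PPARD, the most abundant of the 3 per kilobase, ranged from 53.7 to 113 CPM in parental and 47.0 to 81.2 CPM in knockout tumours. Its high value was parental tumour 2, and its log2 fold change of -0.15 (adjusted p = 0.671) became 0.12 without that tumour.

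NR1H3, the oxysterol receptor LXR-alpha (chr11:47248300-47269032, plus strand), was at 6.63, 7.13, 6.70 and 7.02 CPM in parental and at 4.25, 5.12, 4.62 and 5.09 CPM in knockout tumours. The parental values were tight and all above the knockout values, and NR1H3 fell by 0.53 (SE 0.131, edgeR adjusted p = 0.0120). Its paralog NR1H2 made up 93.7% ± 0.554 of the summed LXR level per kilobase in parental and 95.7% ± 0.425 in knockout tumours (SD over 4 tumours). NR1H2 was at 76.0 to 89.5 CPM in parental and 82.5 to 92.1 CPM in knockout tumours (log2 fold change 0.04, adjusted p = 0.751, interval -0.12 to 0.20). The bile acid receptor NR1H4, called FXR, had 11 counts in parental libraries and 3 in knockout libraries, which is a ratio of 0.272 with an exact 95% interval of 0.0487 to 1.03. The xenobiotic receptor NR1I2 (PXR) had no count in any library. Its relative NR1I3 (CAR) had 10 and 11 counts, and 20% of its exon bases overlap those of TOMM40L on the opposite strand.

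**Figure D3:**
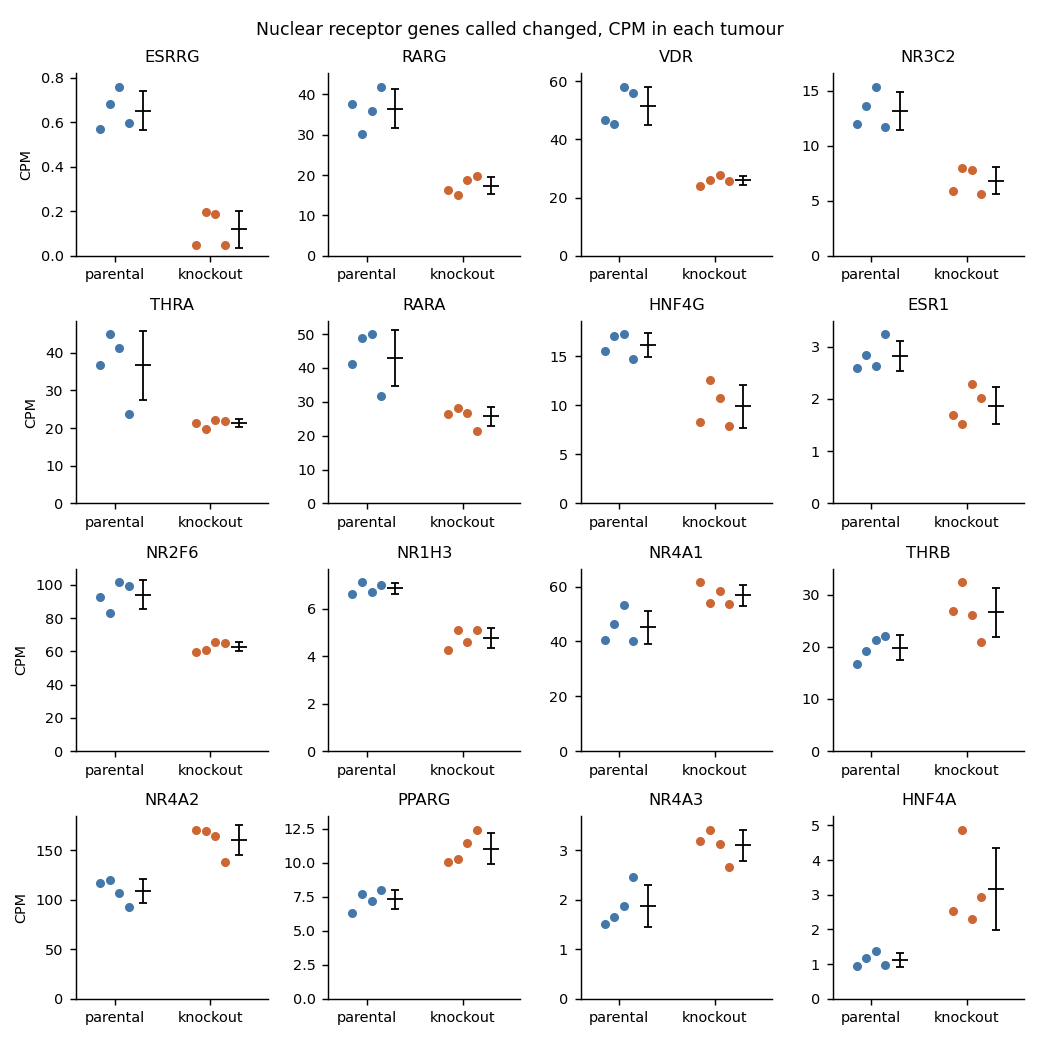
CPM in each tumour for the 16 called receptor genes, each panel starting at 0; dots are tumours, and the bar is the mean and SD of 4 tumours. The first 10 panels, from ESRRG to NR1H3, fell in the knockout and the last 6, from NR4A1 to HNF4A, rose; THRB is the panel in which a knockout value lies inside the parental range.

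Of the steroid receptors, the mineralocorticoid receptor fell and the glucocorticoid receptor was not called changed. NR3C2, the mineralocorticoid receptor, which controls sodium uptake in epithelia (chr4:148078762-148444698, minus strand), was at 12.01, 13.6, 15.4 and 11.7 CPM in parental tumours and at 5.93, 7.95, 7.84 and 5.60 CPM in knockout tumours. All knockout values were below the lowest parental value, and NR3C2 fell by 0.95 (SE 0.156, edgeR adjusted p = 0.000981). NR3C1, the glucocorticoid receptor, was at 154, 154, 115 and 149 CPM in parental and at 154, 162, 158 and 120 CPM in knockout tumours. Each group held 3 high tumours and a lower one, and the log2 fold change was 0.05 (SE 0.123, adjusted p = 0.788, interval -0.19 to 0.30). The estrogen receptor ESR1 (chr6:151656691-152129619, plus strand) was low, at 2.59, 2.83, 2.64 and 3.23 CPM in parental and at 1.68, 1.51, 2.29 and 2.01 CPM in knockout tumours. Again without overlap, ESR1 fell by 0.59 (SE 0.199, adjusted p = 0.0471). That call was lost when any tumour other than knockout tumour 3 was left out, with adjusted p from 0.0646 to 0.138. ESR2, the second estrogen receptor, had 9 counts in parental and 20 in knockout libraries (ratio 2.22, exact 95% interval 0.964 to 5.53). The progesterone receptor PGR had no count in any library.

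The HNF4 receptors, fatty-acid-binding regulators of liver and gut epithelium, moved in opposite directions. HNF4A (chr20:44355700-44434596, plus strand) was at 0.932, 1.17, 1.38 and 0.978 CPM in parental tumours and at 2.52, 4.88, 2.29 and 2.94 CPM in knockout tumours. Every knockout tumour was higher, with knockout tumour 2 the highest, and HNF4A rose by 1.49 on the log2 scale (SE 0.281, edgeR adjusted p = 0.00234). Without knockout tumour 2 the rise was 1.21. HNF4G was the more abundant of the pair, at 15.6, 17.0, 17.2 and 14.7 CPM in parental and at 8.32, 12.6, 10.8 and 7.89 CPM in knockout tumours. No value was shared between the ranges, and HNF4G fell by 0.71 (SE 0.154, adjusted p = 0.00584). Per kilobase, HNF4A made up 4.33% ± 0.513 of the pair's summed level in parental and 17.2% ± 3.67 in knockout tumours (SD over 4 tumours).

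The NR4A receptors are orphan receptors encoded by immediate-early genes, induced within minutes by growth factors, calcium or cyclic AMP, and all 3 were called higher. NR4A2 (chr2:156324432-156342348, minus strand), which is needed for dopaminergic neurons, was at 117, 120, 107 and 92.4 CPM in parental and at 171, 169, 164 and 138 CPM in knockout tumours. All knockout values were above all parental values, and NR4A2 rose by 0.56 (SE 0.105, edgeR adjusted p = 0.00232). NR4A1 (chr12:52022832-52059507, plus strand), known as Nur77, was at 40.4, 46.5, 53.3 and 40.3 CPM in parental and at 61.7, 54.1, 58.3 and 53.6 CPM in knockout tumours. The lowest knockout value was just above the highest parental value (log2 fold change 0.33, SE 0.105, adjusted p = 0.0358). NR4A3 (chr9:99821855-99866891, plus strand), known as NOR1, was at 1.502, 1.66, 1.88 and 2.47 CPM in parental and at 3.18, 3.41, 3.13 and 2.66 CPM in knockout tumours (log2 fold change 0.71, SE 0.206, adjusted p = 0.0242). The groups did not overlap. Leaving out parental tumour 1 or 4, or knockout tumour 1, 2 or 3, ended the NR4A1 call (adjusted p 0.0557 to 0.117), and leaving out parental tumour 1 or 3, or knockout tumour 1, 2 or 3, ended the NR4A3 call (0.0504 to 0.0745). The NR4A2 call held in each of the 15 other analyses. The summed NR4A level per kilobase was 34.0 ± 3.32 CPM per kb in parental and 48.8 ± 4.22 CPM per kb in knockout tumours (SD over 4 tumours).

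Other immediate-early genes did not all follow. Of 14 tested, 2 were called higher and 1 lower (14.3% and 7.14%, against 13.0% and 14.1% of all genes), with a median log2 fold change of 0.014. EGR3 and IER3 rose (1.22 and 0.53) and the antiproliferative gene BTG2 fell by 1.01. FOS and JUN, the subunits of AP-1, had log2 fold changes of 0.10 and -0.03 and were not called. The cyclic AMP response motif core TGACG, read on both strands, was in 24.55% of all promoter windows and in 21.3% of the members' windows. Of the NR4A genes, NR4A1 had no match and NR4A2 had no window to search. NR4A3 holds 4 copies in the stretch before its start, shown with each match in capitals, and their part in its rise was not tested.
NR4A3, chr9:99821741-99821884, plus strand: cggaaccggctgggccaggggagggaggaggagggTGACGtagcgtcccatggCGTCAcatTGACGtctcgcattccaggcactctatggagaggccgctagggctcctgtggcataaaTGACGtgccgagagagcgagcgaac

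In the COUP-TF subfamily, repressors and activators of developmental genes with no established ligand, only NR2F6 was called. NR2F6 (chr19:17231883-17245940, minus strand) was at 92.6, 82.9, 102 and 99.5 CPM in parental tumours and at 59.7, 61.1, 65.7 and 65.2 CPM in knockout tumours. The groups were far apart for their spread, and NR2F6 fell by 0.58 (SE 0.0869, edgeR adjusted p = 0.000510). NR2F1 was at 16.3 to 17.5 CPM in parental and 13.3 to 15.6 CPM in knockout tumours, without overlap but not called (log2 fold change -0.23, adjusted p = 0.112). NR2F2 was at 50.2 to 57.5 and 55.6 to 64.6 CPM (log2 fold change 0.17, adjusted p = 0.146). The testicular receptors NR2C1 and NR2C2, which repress by binding direct repeats, had log2 fold changes of 0.19 and 0.18 (adjusted p = 0.159 and 0.128). The NR2C1 groups did not overlap, at 23.1 to 25.5 and 25.6 to 31.0 CPM.

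The estrogen-related receptors, constitutively active regulators of mitochondrial and metabolic genes, were carried almost wholly by ESRRA. It was at 82.0, 82.2, 95.8 and 81.8 CPM in parental and at 74.3, 73.7, 70.6 and 74.5 CPM in knockout tumours. The groups did not overlap, but the change of -0.22 (SE 0.0802) had an edgeR adjusted p of 0.0619, and DESeq2 gave 0.0318. ESRRA shares 284 exon bases with TRMT112 on the opposite strand, 9.37% of its exons. ESRRG (chr1:216503246-217137755, minus strand) rested on few reads, with 11, 14, 17 and 14 counts in parental and 1, 4, 4 and 1 counts in knockout libraries. That equals 0.570 to 0.759 CPM and 0.0467 to 0.195 CPM without overlap, and ESRRG fell by 2.41 (SE 0.433, adjusted p = 0.00172), the largest called change among the members. It passed the filter on low counts through its parental libraries alone. A gene at its knockout level in both groups would not have been tested. ESRRB had 8 counts in parental and 19 in knockout libraries (ratio 2.37, exact 95% interval 0.990 to 6.25).

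The clock receptors and the remaining orphans gave no call. NR1D1 (REV-ERB-alpha), a heme-binding repressor of the core clock, was at 14.4, 20.5, 15.6 and 12.03 CPM in parental and at 22.6, 21.8, 21.9 and 14.9 CPM in knockout tumours. Its groups overlapped through parental tumour 2 and knockout tumour 4, and the difference was 0.38 on the log2 scale (SE 0.176, edgeR adjusted p = 0.142). It passed the threshold without parental tumour 2 (0.53, adjusted p = 0.0304) and without knockout tumour 4 (0.50, adjusted p = 0.0458). NR1D2 (REV-ERB-beta) was at 19.1 to 28.5 and 16.8 to 33.5 CPM (log2 fold change 0.16, adjusted p = 0.575). RORA, the activator that competes with the REV-ERBs for their sites, was at 7.77, 12.8, 6.21 and 5.53 CPM in parental and at 11.8, 14.5, 10.9 and 6.40 CPM in knockout tumours. Its log2 fold change was 0.43 (adjusted p = 0.298), and 0.75 without parental tumour 2 (adjusted p = 0.0434). Of 17 tested clock genes, PER3 and NFIL3 rose (1.52 and 0.68) and DBP and PER2 fell (-0.56 and -0.36), 11.8% each way against 13.0% higher and 14.1% lower of all genes, with a median of 0.08. The share each way was close to that of all genes. The DBP and PER2 calls ended when single tumours were left out (edgeR adjusted p up to 0.1098 and 0.111). The core activators CLOCK (-0.32) and ARNTL (-0.17) were not called.

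NR0B1 (DAX1), a receptor without a DNA-binding domain that represses other receptors, was at 7.20, 3.03, 6.88 and 10.0 CPM in parental tumours and at 3.32, 4.39, 4.15 and 4.81 CPM in knockout tumours. Parental tumour 2 lay below all knockout tumours, and the change was -0.71 (SE 0.294, edgeR adjusted p = 0.101). Without that tumour it was -0.95 (adjusted p = 0.00355). NR6A1, the germ cell nuclear factor, was at 3.44 to 4.69 and 4.06 to 6.07 CPM (log2 fold change 0.35, adjusted p = 0.170). NR5A2 (LRH-1), a regulator of bile acid and steroid synthesis, had 27 counts in parental and 31 in knockout libraries. NR5A1 and RORB had 1 count in each group, and the photoreceptor receptor NR2E3 had 2 and 3. NR0B2 (SHP), like NR1I2 and PGR, had no count among 85192019 parental and 85462436 knockout gene counts, which allows up to 3 counts a group (0.0352 and 0.0351 CPM). These limits and intervals cover counting error only.

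The balance between paralogs was compared next. For each of the 20 pairs of tested genes within a subfamily, the log2 ratio of their counts was taken within each tumour, a measure that does not depend on library scaling. The ratio was chosen after the values were seen. In 9 pairs the groups did not overlap, each at the smallest p that 4 against 4 tumours can give (p = 0.0286 by exact two-sided permutation; Benjamini-Hochberg adjusted over the 20 pairs, 0.0635), and 0 pairs passed 0.05 after adjustment. At that smallest p, a pair passes after adjustment only if most of the 20 pairs reach it, so the adjusted result decides nothing. The share for pairs of other genes was not computed. Single genes did not overlap in 29.3% of all 16219 tested, which is not a like measure for ratios. Most of the 9 pairs hold a member called above, so their number is not a separate result about the receptors. The log2 ratio of THRA to THRB was 0.85 ± 0.514 in parental and -0.30 ± 0.321 in knockout tumours, a shift from more THRA reads to more THRB reads. That of RARB to RARG went from -1.38 ± 0.263 to -0.36 ± 0.354, and that of NR3C1 to NR3C2 from 3.44 ± 0.369 to 4.45 ± 0.170 (SD over 4 tumours). The ratio of HNF4A to HNF4G moved by 2.18, and that of ESRRA to ESRRG by 2.56 on few ESRRG reads. Smaller shifts without overlap were those of NR2F2 to NR2F6 (0.75), NR1H2 to NR1H3 (0.57), NR2F1 to NR2F2 (-0.41) and NR2F1 to NR2F6 (0.34). The 3 NR4A pairs overlapped between the groups.

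**Figure D4:**
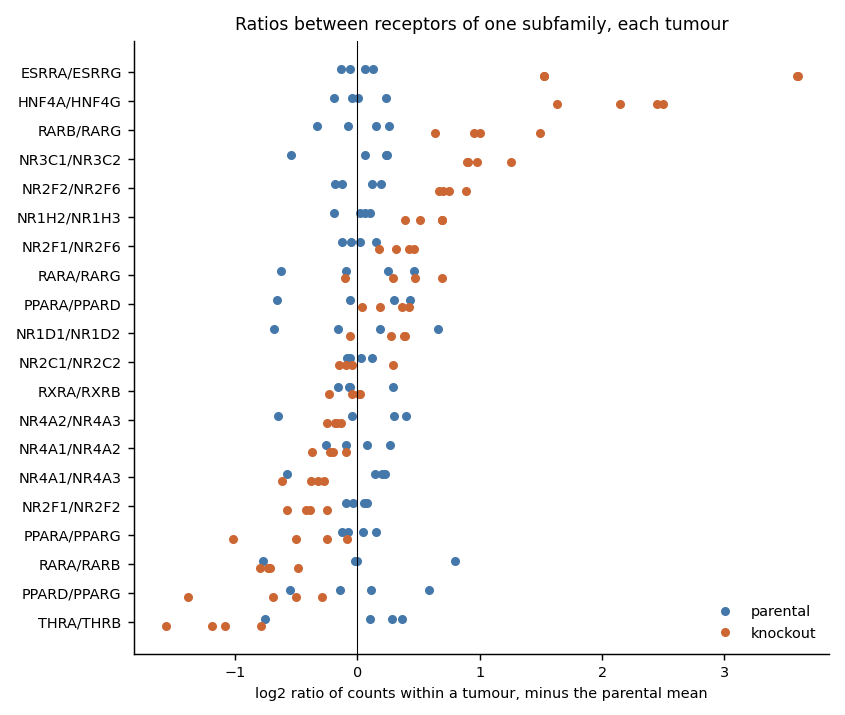
Log2 ratio of counts between 2 receptors of a subfamily within each tumour, as the difference from the parental mean; each dot is a tumour, and pairs are ordered by the mean difference. In 9 of 20 pairs, among them ESRRA/ESRRG, HNF4A/HNF4G and THRA/THRB, the knockout tumours lie wholly to one side of the parental tumours. The share for pairs of other genes was not computed.

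Cofactors through which the receptors act were next counted against the same background. Of 17 coactivators tested, 2 rose and 2 fell (11.8% each way, against 13.0% higher and 14.1% lower of all genes), with a median log2 fold change of -0.07. PPARGC1A, the inducible coactivator PGC-1-alpha of PPARs and estrogen-related receptors, was at 24.3, 20.8, 11.2 and 11.2 CPM in parental and at 56.9, 46.1, 49.0 and 33.3 CPM in knockout tumours. The groups did not overlap, and PPARGC1A rose by 1.46 (SE 0.256, edgeR adjusted p = 0.00147). NCOA3 (SRC-3) also rose (0.45), while PPARGC1B and the arginine methyltransferase PRMT1 fell (-0.53 and -0.36). Of 9 corepressors, 4 fell and the other 5 were not called (44.4% lower, median -0.24): NRIP1 (-0.70), the NCoR complex subunits TBL1X (-0.49) and HDAC3 (-0.24), and the thyroid receptor corepressor HR (-1.22). NCOR1 itself was at -0.04 and was not called. Of 10 chaperones that hold steroid receptors ready for ligand, 4 fell (40%, median -0.24): FKBP5 (-0.97), FKBP4 (-0.45), HSP90AB1 (-0.36) and ST13 (-0.26). Several of these small changes did not hold with a tumour left out. The PPARGC1B call ended without parental tumour 3 or knockout tumour 1 or 2 (adjusted p up to 0.0644), the PRMT1 call without knockout tumour 1, 2 or 3 (up to 0.0721), and the HDAC3 call without any tumour but parental 1 or 2 (up to 0.103). The FKBP4 call ended without any tumour but parental 2 or 3 (up to 0.121) and the ST13 call without parental tumour 1 or 4 or knockout tumour 1, 3 or 4 (up to 0.0895).

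Genes that supply or remove ligand changed in both directions. Of 11 tested genes of retinoid transport and metabolism, 2 rose and 5 fell (18.2% and 45.5%, against 13.0% and 14.1% of all genes, median -0.32). ALDH1A1, which makes retinoic acid from retinal, was at 187, 122, 295 and 331 CPM in parental and at 34.4, 44.1, 38.1 and 49.7 CPM in knockout tumours, and fell by 2.49 (SE 0.273, edgeR adjusted p = 5.88e-05). DHRS3, which turns retinal back to retinol, fell by 1.52, and the retinol dehydrogenase RDH10, the uptake receptor STRA6 and the retinoic acid carrier CRABP2 fell too (-0.95, -1.25 and -2.82). The STRA6 groups overlapped, at 5.42 to 19.2 CPM in parental and 4.67 to 6.07 CPM in knockout tumours. CRABP2 was at 3.73, 11.96, 2.28 and 5.27 CPM in parental tumours, and its log2 fold change was -2.20 without parental tumour 2. The retinoic acid hydroxylase CYP26B1 rose by 1.14. Of 14 enzymes and transporters for steroid, vitamin D and thyroid ligands, 3 rose and 3 fell (21.4% each way, median 0.15). SULT2B1, which sulfates cholesterol and oxysterols, rose by 1.51, and DIO3, which inactivates thyroid hormone, rose from 11 to 65 counts (2.53). DIO3 had too few parental counts to pass the filter on low counts without its knockout libraries. The steroid sulfatase STS and the steroid reductase SRD5A1 fell (-1.78 and -0.58).

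Textbook targets of the retinoid receptors changed in both directions, those of VDR were called higher or not at all, and those of the thyroid hormone receptors gave a single call. Of 11 tested retinoic acid receptor targets, 3 rose and 5 fell (27.3% and 45.5%, against 13.0% and 14.1% of all genes), with a median of -0.70, and CYP26B1, DHRS3, STRA6 and CRABP2 are among those also on the retinoid metabolism list. TGM2, a transglutaminase induced by retinoic acid, was at 740 to 842 CPM in parental and 1593 to 2101 CPM in knockout tumours and rose by 1.20. RARRES1, a gene named for its response to retinoids, varied widely between parental tumours, with 314, 61, 980 and 778 counts. It had 2, 0, 0 and 1 counts in knockout tumours, and passed the filter on low counts through its parental libraries alone. The pooled knockout level was 0.140% of the parental level per library count, with an exact 95% interval of 0.0289% to 0.410% that covers counting error and not the spread between tumours. It was 0.0629% without knockout tumour 1 and 0.193% without parental tumour 3. RARB, as above, was not called. Of 6 VDR targets, SPP1 and IGFBP3 rose (0.98 and 1.16) and the other 4 were not called (33.3% higher, median 0.28). CYP24A1, the vitamin D hydroxylase most directly induced by VDR, was at 610, 595, 748 and 392 CPM in parental and at 500, 446, 392 and 339 CPM in knockout tumours. The groups overlapped, and the difference was -0.48 on the log2 scale (SE 0.179, edgeR adjusted p = 0.0678). Of 6 thyroid hormone receptor targets, HR fell and the other 5 were not called (16.7% lower, median -0.23), among them KLF9 at -0.34.

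Targets of the lipid-sensing and xenobiotic receptors were called in both directions. Of 12 LXR targets, 1 rose and 4 fell (8.33% and 33.3%, against 13.0% and 14.1% of all genes, median -0.35), NR1H3 itself being on this list. The phospholipid carrier PLTP was at 56.6 to 73.0 CPM in parental and 17.9 to 21.5 CPM in knockout tumours and fell by 1.73 (SE 0.1095, edgeR adjusted p = 1.46e-06). The cholesterol exporter ABCA1 fell by 0.95, and the desaturase SCD rose by 1.14. Lipoprotein lipase LPL, on the LXR and PPAR lists, had 217, 90, 103 and 291 counts in parental and 1, 1, 0 and 0 counts in knockout tumours. That is 0.284% of the parental level, with an exact 95% interval for counting error alone of 0.0344% to 1.03%. It was 0.188% without knockout tumour 2 and 0.380% without knockout tumour 3. LPL too passed the filter on low counts through its parental libraries alone. Of 13 PPAR targets, 1 rose and 3 fell (7.69% and 23.1%, median -0.16). PLIN2, which coats lipid droplets, fell by 2.29 (-1.68 without parental tumour 2), PDK4 fell by 0.94, and the lipase inhibitor ANGPTL4 rose by 1.26. The PPARG target FABP4 was under the filter. Of 8 targets of FXR, PXR and CAR, whose receptors were near or at 0 counts, 4 rose and 1 fell (50% and 12.5%, median 0.34). ABCC2 (1.01), SLC51B (2.27) and ALAS1 (0.36) were among those that rose, and UGT1A1 (-1.99) fell.

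Among steroid receptor targets, the epithelial sodium channel subunit SCNN1A, a gene induced by both corticoid receptors, was at 252, 238, 270 and 213 CPM in parental and at 32.8, 60.5, 46.4 and 75.9 CPM in knockout tumours. No knockout tumour reached the parental range, and SCNN1A fell by 2.17 (SE 0.213, edgeR adjusted p = 2.77e-05). Of 14 tested glucocorticoid receptor targets, 3 rose and 5 fell (21.4% and 35.7%, against 13.0% and 14.1% of all genes), while the median was 0.23, of the other sign than the majority of calls. FKBP5 and TSC22D3, a pair of standard readouts of that receptor, fell (-0.97 and -0.40), and MT2A and ANGPTL4 rose (1.02 and 1.26). The TSC22D3 call ended without any tumour but parental 4 or knockout 1 (adjusted p up to 0.104). SGK1, a target of both corticoid receptors, was at 0.60 and was not called (adjusted p = 0.0696). Of 13 estrogen receptor targets, 1 rose and 6 fell (7.69% and 46.2%, median -0.49), with RARA and the corepressor NRIP1 counted among them. TFF3, a secreted trefoil peptide, was at 199 to 360 CPM in parental and 9.63 to 23.1 CPM in knockout tumours and fell by 4.23 (SE 0.290, adjusted p = 2.67e-06). GREB1 and XBP1 fell (-1.79 and -0.95), AREG rose by 1.84, and TFF1 (-0.17) was not called. Of 8 HNF4A targets, 1 rose and 3 fell (12.5% and 37.5%, median -1.16): VIL1 (-4.17), FOXA2 (-1.88) and AMBP (-1.79) fell and FGB (0.91) rose, in tumours where HNF4A rose and HNF4G fell.

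**Figure D5:**
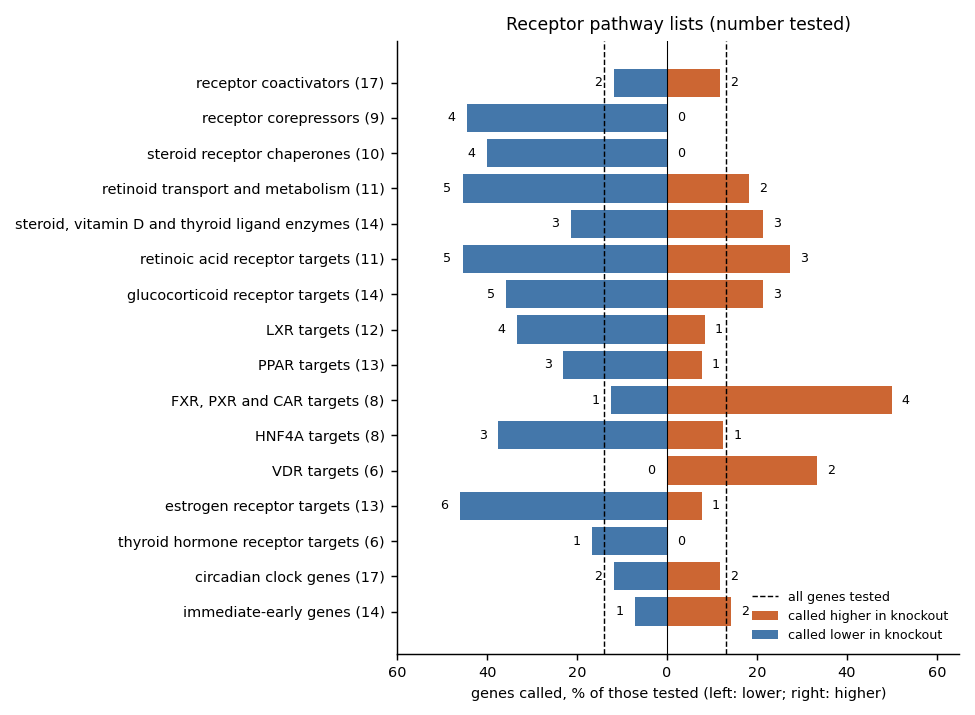
Share of tested genes called lower (left) and higher (right) in knockout tumours for 16 receptor pathway lists, with the number tested in brackets, the number called at each bar and the shares over all 16219 tested genes as dashed lines (14.1% lower, 13.0% higher). Corepressors and chaperones have calls on the lower side alone, and FXR, PXR and CAR targets have 4 of 8 on the higher side.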

How the data were processed

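RNA sequencing was done on 8 tumours, 4 a group, and each tumour has 1 table of raw read counts per gene symbol, deposited by the authors in the layout of htseq-count. TopHat2 2.1.1, HTSeq 0.11.0 and the build hg38 are named, without roles, in the submitters' processing notes. Per the labels' protocols, total RNA was isolated with column kits and libraries were built with a DNA library kit. The annotation, counting options, strandedness and any separation of mouse host reads are not given in the sources used here. Reads of similar mouse transcripts can therefore enter a count. Reads in bases shared by genes on opposite strands can enter a count or be set aside as ambiguous. Ambiguous reads were 3.98% to 4.31% of each library. The summary lines for unassigned reads (14.8% to 20.9% of each library) were left out.

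Counts were fitted with edgeR 4.0.16 in R 4.3.3: filterByExpr (minimum count 10, minimum total 15), TMM scaling and the two-sided quasi-likelihood F-test on all 8 tumours, with Benjamini-Hochberg adjustment over the 16219 genes tested and a threshold of 0.05. CPM was computed on the scaled library sizes, and levels per kilobase used the union of GENCODE 29 exons, so a gene with long exons that these cells do not use reads low. Single ratios were compared by exact two-sided permutation of 4 against 4. The script for the fit was tested on simulated data. Replicate libraries differed by more than sampling noise (chi-square per degree of freedom at least 9.13).

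The receptor genes and the cofactor, ligand, target and marker lists were chosen with earlier results of these data known. All 45 members are accounted for, and called members and those with an average log2 CPM of 1 or more are given with values. Of each list, up to 4 called genes with the smallest p are named, with direct targets of a called receptor whatever their result. Other called genes are counted only, except that RDH10, STRA6, CRABP2, TSC22D3, ALAS1 and the uncalled cofactor, clock and immediate-early genes were named after their values were seen. A gene that the rule names and the text does not is not reported here. RARRES3 was matched through its RefSeq synonym. All lists were found whole except 15 of 16 glucocorticoid targets and 18 of 19 clock genes. Other analyses were DESeq2 1.42.0, limma-voom (limma 3.58.1), 2 other scalings, 2 other filters, the replicate number as a block and leaving out each tumour.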

Additional observations from a re-analysis of the deposited data

Results flagged for a closer look

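Of 168 sets of 4 tumours compared for a single sample far from the other 3, 7 stood out (4.17%), where chance gives about 5%. Among the receptors, NR1D1 in knockout tumour 4 was at 14.9 CPM against 21.8 to 22.6 in the other knockout tumours. ESRRA in parental tumour 3 was at 95.8 CPM against 81.8 to 82.2 in the other parental tumours, and NR3C1 in that tumour was at 115 CPM against 149 to 154. Among the pathway genes, IGFBP3 in knockout tumour 4 was at 642 CPM against 1087 to 1175, and the coactivator NCOA3 in the same tumour was at 120.5 CPM against 159 to 163. PER2 in knockout tumour 2 was at 61.7 CPM against 55.5 to 56.3, and PLIN2 in parental tumour 2 was at 14.99 CPM against 4.04 to 5.85.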

How the results depend on the processing

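Across 15 other analyses, 7 of them on other settings and 8 with a tumour left out, 12 to 17 receptor genes were called. Of the 16 called members, 12 held in every analysis that tested them, ESRRG not being tested under the filter of CPM of at least 1 in 4 libraries, and none of the 16 changed sign. The other 4 were THRB, ESR1, NR4A1 and NR4A3, with adjusted p of up to 0.129, 0.138, 0.117 and 0.0745. With a tumour left out, members called higher ranged from 3 to 7, members called lower from 9 to 10, all genes called from 3501 to 4721, and pathway genes called from 60 to 71. The sign changed for 5 members that were not called: RXRB was at 0.0078 with upper-quartile scaling, and with a tumour left out RXRB ranged from -0.11 to 0.019, PPARD from -0.28 to 0.12, NR3C1 from -0.041 to 0.15, RARB from -0.24 to 0.042 and NR1H2 from -0.014 to 0.072; the cause was not tested. DESeq2 added ESRRA, and no filter added NR0B1 (adjusted p = 0.0394) while losing ESR1, NR4A1 and NR4A3. Upper-quartile scaling lost ESR1, and limma-voom lost THRB (adjusted p = 0.0524). The median log2 fold change of all genes was 0.041 with upper-quartile scaling and nearer to 0 in the other analyses.

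Same-numbered tumours did not deviate together (correlations -0.043, -0.022, -0.19 and 0.086), and parental tumour 2, for one, correlated best with knockout tumour 1 (0.25), so the numbers were not taken to pair the tumours. With the replicate block, 13 members were called, 4 higher and 9 lower, and 23.9% of all genes, without THRB, ESR1 and NR4A3. Depth limits ESRRG, with 1 to 17 counts a library, and the 12 members under the filter, which were not tested.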

Other observations

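Several receptor genes share exon bases with a neighbour, whose counts are given here as sums of 4 libraries with no test. THRB-AS1, which shares 42 exon bases with THRB on the opposite strand, had 15 counts in parental and 57 in knockout libraries. RORA-AS1 had 51 and 97 counts, and shares 564 bases with RORA. TRMT112, across from ESRRA, had 6877 and 4350 counts, and MRPS25, which shares 1197 bases with NR2C2, had 4651 and 6391. Without the strand of the reads, a gene and its antisense neighbour cannot be told apart in the shared bases. Processed copies took almost no reads: ESRRAP1 had 1 count over all 8 libraries, and ESRRAP2 and HNF4GP1 had 0.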
